A study of Mus musculus with 30 samples.

Results

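The 9 genes described here, out of 54146 in the count table, encode secreted lectins, their relatives and other parts of the defence that the small intestinal epithelium directs at its lumen. They are Mbl2, Reg1, Reg3a, Reg3b, Reg3g, Lypd8, Pigr, Il18 and Nlrp6, and they were chosen by name. All 9 were found in the table. Mbl2 was picked because its counts were low in ICZ mice, so its values in ICZ against vehicle mice are given as a description with no test. ICZ, indolo[3,2-b]carbazole, binds the aryl hydrocarbon receptor (AHR), which senses dietary and microbial indoles and acts as a transcription factor. Female C57BL/6 mice of 8 to 10 weeks, labelled WT (wild type), were kept for 1 week on the semi-purified AIN93G diet without AHR agonists. They were gavaged with 10 µg of ICZ in corn oil or with vehicle alone. The small intestine was taken 12 h later and its epithelium released by sequential EDTA treatment as fractions F1 to F5, which were sequenced as 3′ end libraries. There were 3 ICZ mice with 14 libraries, the F1 library of ICZ replicate 3 being not analysed here, and 3 vehicle mice with 15 libraries.

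The gut epithelium keeps bacteria off its surface with secreted proteins that bind them. Mannose-binding lectin, encoded by Mbl2, recognises sugars on microbes and can start the lectin pathway of complement, and it is best known as a plasma protein made by the liver. Reg proteins are small C-type lectins, and Reg3b and Reg3g bind and kill bacteria and are induced by the microbiota and by interleukin 22. Pigr carries polymeric IgA across the epithelium, Lypd8 binds flagella, Nlrp6 is a sensor that can assemble an inflammasome, and interleukin 18 is a cytokine released through inflammasomes.

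RefSeq promoter sequences (build GRCm38.p6) matched all 9 genes in 10 windows, and 3 are shown because they carry the contrast between Mbl2 and the only windows upstream of a start that held a searched motif. Each shows the 250 bases before the RefSeq start, on the gene's own strand. Capitals mark GCGTG, the core of the AHR element, or TTCNNNGAA, the STAT element, both searched on either strand, and no capitals mean that neither was found in the shown bases.
Mbl2, plus strand, chr19:30232678-30232927: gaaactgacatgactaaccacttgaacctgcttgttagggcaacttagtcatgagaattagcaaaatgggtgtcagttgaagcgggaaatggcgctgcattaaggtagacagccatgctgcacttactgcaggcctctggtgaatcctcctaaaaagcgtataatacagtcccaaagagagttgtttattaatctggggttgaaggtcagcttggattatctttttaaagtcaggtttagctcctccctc
Nlrp6, plus strand, chr7:140920652-140920901: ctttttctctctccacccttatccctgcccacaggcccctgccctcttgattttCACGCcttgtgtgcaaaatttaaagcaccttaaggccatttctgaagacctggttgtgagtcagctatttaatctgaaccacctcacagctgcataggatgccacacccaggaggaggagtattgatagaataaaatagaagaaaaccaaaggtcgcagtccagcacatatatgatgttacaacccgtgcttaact
Reg3b, plus strand, chr6:78370635-78370884: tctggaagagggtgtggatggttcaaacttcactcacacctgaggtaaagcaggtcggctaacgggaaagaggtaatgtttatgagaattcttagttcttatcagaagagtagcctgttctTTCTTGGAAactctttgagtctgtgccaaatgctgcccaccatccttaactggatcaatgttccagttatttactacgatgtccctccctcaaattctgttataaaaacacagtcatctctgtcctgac
In the Nlrp6 window the AHR core stands on the opposite strand, 196 bases before the start. The Reg3b match to the STAT element begins 129 bases before the RefSeq start. That start lies inside the GENCODE bounds of Reg3b, which begin at 78370657, and so does the match. Another match to the STAT element begins 40 bases after the start of Pigr, and the windows of Reg1, Reg3a, Reg3g, Lypd8 and Il18 held neither motif. Of 32851 windows that run from 250 bases before to 50 after a RefSeq start, 32.4% held GCGTG and 8.30% held TTCNNNGAA.

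Gene reads numbered 4359673 to 7819837 per library (median 6351137). The labels number the fractions in order of release and do not place them on the crypt-villus axis. Summed markers of absorptive enterocytes averaged 44052 CPM (reads per 1000000 gene reads, scaled by TMM) in F1 and 16569 CPM in F5 of ICZ mice, and 38639 and 18946 CPM in vehicle mice. The top 10 genes of F5 in ICZ replicate 1 made up 54.3% of gene reads, where the median library had 26.8%. The F5 libraries of replicate 3 stood apart in pancreatic acinar genes, with a summed level of 1537 CPM in the ICZ mouse and 2075 CPM in the vehicle mouse, against 50.7 to 227 CPM in the other 27 libraries. Libraries were made from bulk tissue, so fewer cells of a type and less RNA per cell cannot be told apart, and levels are not compared between genes.

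Mbl2 (GRCm38 chr19:30232942-30239687, plus strand, protein coding) was a low transcript that was most abundant in the first fractions of both treatments. In ICZ replicate 1 it had 1.72, 1.08, 1.32, 0.441 and 0.534 CPM in F1 to F5. In ICZ replicate 2 it had 6.55, 3.11, 2.82, 1.27 and 0.888 CPM in F1 to F5. ICZ replicate 3 had 2.28, 2.00, 0.818 and 0.780 CPM in F2 to F5. In each ICZ mouse the F4 and F5 libraries were the lowest. Vehicle replicate 1 had 6.09, 7.61, 4.46, 3.24 and 3.22 CPM in F1 to F5. Vehicle replicate 2 had 15.2, 10.5, 5.83, 3.09 and 5.06 CPM, and vehicle replicate 3 had 11.3, 10.7, 5.93, 1.93 and 1.55 CPM. In the vehicle mice, too, F1 and F2 were the highest and F4 or F5 the lowest. These values rest on 2 to 42 reads per library in ICZ mice and 11 to 96 reads per library in vehicle mice.

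The slope of Mbl2 over the fraction number, with the mouse as a block, was -0.61 ± 0.10 log2 per fraction in ICZ mice (SE, edgeR adjusted p = 0.000246) and -0.52 ± 0.08 in vehicle mice (SE, edgeR adjusted p = 9.59e-05). Mbl2 thus fell along the fractions in both treatments, and its slope was negative in all 3 ICZ mice and all 3 vehicle mice taken singly. From the most negative slope, Mbl2 ranked 12 of 12869 tested genes in ICZ mice and 27 of 13164 in vehicle mice. In ICZ mice the F4 and F5 libraries held 2 to 8 reads of Mbl2, under the filter's minimum count of 10. The filter thus admitted Mbl2 there through earlier fractions, where it was higher, so its ICZ slope, p and rank are a description only. In vehicle mice every library held at least 11 reads. Over F1 to F4 alone the slope was -0.64 log2 per fraction in vehicle mice (edgeR adjusted p = 0.000177). In ICZ mice it was also -0.64, again a description only, since F4 there is under the filter's minimum count too. Between neighbouring fractions, F4 was lower than F3 in all 6 mice, at 0.334 to 0.452 of the F3 level in ICZ mice and 0.325 to 0.727 in vehicle mice. F5 and F4 did not differ in 1 direction over the mice, with F5 at 0.697 to 1.21 of F4 in ICZ mice and 0.803 to 1.64 in vehicle mice.

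**Figure D1:**
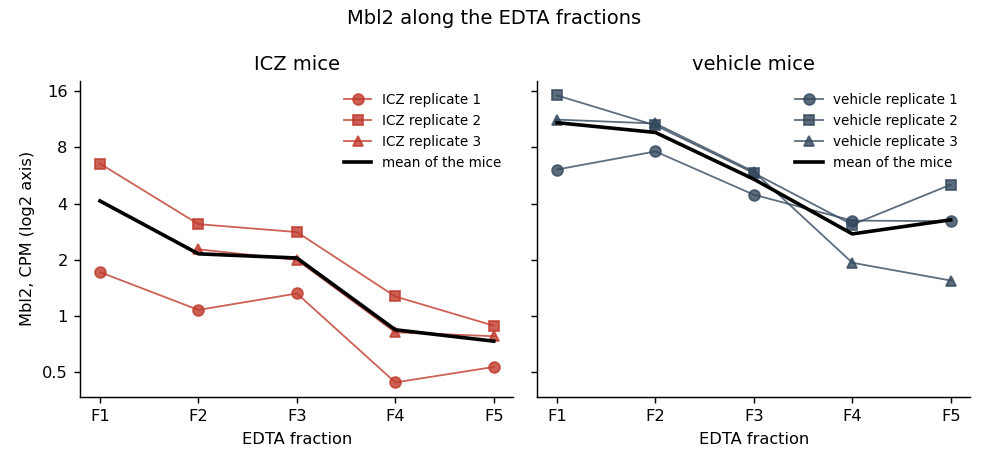
Mbl2 in CPM (log2 axis) over EDTA fractions F1 to F5, with 1 line per mouse and the mean of the mice in black, for ICZ mice (left) and vehicle mice (right); the ICZ mean at F1 is over 2 mice. Both means are highest at F1, at 4.13 CPM in ICZ mice and 10.9 CPM in vehicle mice, and lie at 0.734 and 3.28 CPM at F5.

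With F2 to F5 added per mouse, Mbl2 had 0.882, 1.96 and 1.60 CPM in ICZ mice, against 4.78, 6.14 and 5.07 CPM in vehicle mice. The highest ICZ mouse lay below the lowest vehicle mouse. The ICZ mean was 1.48 ± 0.550 CPM and the vehicle mean 5.33 ± 0.714 CPM (SD, n = 3 each), a ratio of 0.278, on 111 reads in all ICZ mice and 427 in all vehicle mice. By fraction the ratio of the means, ICZ over vehicle, was 0.381 in F1, 0.224 in F2, 0.378 in F3, 0.307 in F4 and 0.224 in F5. The mice of the treatments did not overlap in F2 to F5 and overlapped in F1, where ICZ replicate 2 with 6.55 CPM lay above vehicle replicate 1 with 6.09 CPM. Fitted log2 differences were -1.31 in F1, -2.18 in F2, -1.44 in F3, -1.66 in F4 and -2.06 in F5. The F1 value was -2.62 without ICZ replicate 2 and -0.73 without ICZ replicate 1. The slopes of the treatments differed by -0.09 log2 per fraction, a value given without a test.

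Levels of 10 hepatocyte markers were read beside Mbl2. Fga had 0 reads in every library, Ahsg, Fgb, Hpx and Serpina1a stayed below 1 CPM throughout, and Apoh and Alb did not exceed 1.03 and 1.29 CPM. Serpina1c ran from 0.634 to 6.01 CPM and Ttr, the transthyretin gene, from 3.40 to 20.3 CPM over the libraries. The median of Serpina1c was 1.96 CPM in ICZ libraries and 1.91 CPM in vehicle libraries, and that of Ttr 9.51 and 7.05 CPM. Cps1, a gene that intestinal cells also express, had 120 to 423 CPM. The list summed to 255 to 365 CPM in ICZ mice and 225 to 277 CPM in vehicle mice with F2 to F5 added. These ranges overlap, as they did in F1, F2, F4 and F5. In F3 the list summed to 297 to 359 CPM in ICZ mice and 216 to 234 CPM in vehicle mice, with no overlap. The part of these markers in the Mbl2 values was not tested. With F2 to F5 added per mouse, absorptive enterocyte markers summed to 21460 to 29855 CPM in ICZ mice and 18975 to 33112 CPM in vehicle mice, ranges that overlap. T cell markers, all 10 of which were detected, summed to 225 to 377 CPM in ICZ mice and 340 to 539 CPM in vehicle mice, and in F2 to 189 to 394 CPM in ICZ mice and 511 to 1190 CPM in vehicle mice. The part of T cell content in the Mbl2 values was not tested.

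The transcripts most like Mbl2 over the 29 libraries, by Pearson correlation of log2 CPM among 8618 genes with a mean of at least 5 CPM and a symbol other than a predicted, RIKEN or clone name, were Pigr (r = 0.866), Dtx3l (0.863), Gbp7 (0.849), Batf2 (0.839) and Slc9a3 (0.833). These values describe libraries that share mice, fractions and depth, and they take in the low ICZ values for which Mbl2 was picked. Dtx3l encodes a ubiquitin ligase partner of Parp9, and Slc9a3 the brush border sodium/hydrogen exchanger. Of the other genes described here, Il18 (0.666) and Reg1 (0.607) came next after Pigr, and Reg3g was the least like Mbl2 (0.025).

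The Reg genes were abundant, varied much between mice, and did not pass the test for a difference between ICZ and vehicle mice. They lie in a cluster on chromosome 6, where Reg3b (GRCm38 chr6:78370657-78373466), Reg3a (chr6:78380709-78383827) and Reg1 (chr6:78422711-78428667) are on the plus strand and Reg3g (chr6:78466269-78468872) on the minus strand. All are protein coding. Over the last 300 bases of their transcripts, the stretch nearest to what 3′ libraries read, any pair of these genes was 50.2% to 56.5% identical. No such pair shared a run longer than 19 bases. With Reg2, Reg3d and Reg4 included, pairs were 42.5% to 60.3% identical and shared no run longer than 22 bases.

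Reg3b, a bactericidal lectin, had 1024, 819 and 444 CPM in the summed F2 to F5 of ICZ mice, against 1079, 861 and 1109 CPM in vehicle mice. ICZ replicate 3 was the lowest of the 6, and the treatments overlapped. The log2 difference was -0.41 ± 0.28 (SE, edgeR adjusted p = 0.893). In F4, Reg3b had 877, 727 and 501 CPM in ICZ mice, against 1128, 935 and 1179 CPM in vehicle mice. All 3 ICZ mice lay below the vehicle mice there, with a log2 difference of -0.60 ± 0.19 (SE, edgeR adjusted p = 0.999), and the adjusted p was 0.00278 when genes of low counts were kept in the fit. In F1 the 2 ICZ mice had 906 and 779 CPM, below the 1056 to 1102 CPM of the vehicle mice, with a log2 difference of -0.34 ± 0.13 (SE, edgeR adjusted p = 0.995). In F2 the ICZ mice ranged from 453 to 1390 CPM, on both sides of the 933 to 993 CPM of the vehicle mice.

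Reg3g, the other bactericidal lectin, had 426, 382 and 230 CPM in summed ICZ mice, against 426, 297 and 312 CPM in vehicle mice, and the log2 difference was 0.01 ± 0.24 (SE, edgeR adjusted p = 0.998). Reg3a had 301, 241 and 208 CPM in ICZ mice, against 384, 278 and 190 CPM in vehicle mice, with a log2 difference of -0.18 ± 0.25 (SE, edgeR adjusted p = 0.942). The treatments overlapped for both genes. In replicate 3 Reg3a was the lowest of its treatment among ICZ mice and also among vehicle mice. Reg1, a family member first described in the pancreas, had 671, 855 and 687 CPM in summed ICZ mice, against 606, 970 and 1203 CPM in vehicle mice. Its log2 difference was -0.33 ± 0.23 (SE, edgeR adjusted p = 0.893). The vehicle mice differed among themselves by 1.98-fold in Reg1, and the ICZ mice by 1.27-fold. In the F5 libraries of replicate 3, in which pancreatic acinar genes were high, Reg1 had 429 CPM in the ICZ mouse and 620 CPM in the vehicle mouse, each lower than in F1 to F4 of the same mouse where measured.

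**Figure D2:**
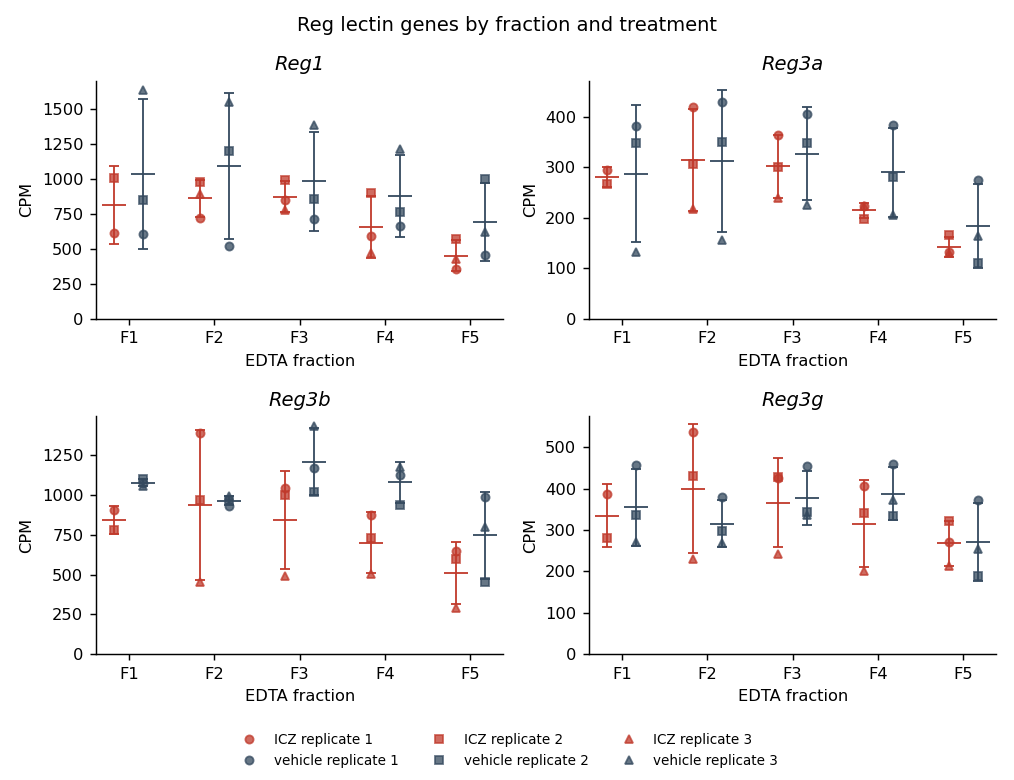
Reg1, Reg3a, Reg3b and Reg3g in CPM by EDTA fraction, with 1 point per mouse, ICZ mice left of vehicle mice in each fraction, and bars for mean ± SD. Spread within a treatment covers the gap between treatments in most fractions, except for Reg3b in F1 and F4, and the F5 means of Reg1 and Reg3a in ICZ mice lie at 453 and 143 CPM, below their F1 means of 815 and 281 CPM.

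Along the fractions, Reg1 had a slope of -0.21 ± 0.05 log2 per fraction in ICZ mice (SE, edgeR adjusted p = 0.00429) and -0.12 ± 0.05 in vehicle mice (SE, edgeR adjusted p = 0.104). Reg3a had -0.25 ± 0.06 in ICZ mice (SE, edgeR adjusted p = 0.00423) and -0.11 ± 0.08 in vehicle mice (SE, edgeR adjusted p = 0.279). Reg3b had -0.15 ± 0.05 in ICZ mice (SE, edgeR adjusted p = 0.0337) and -0.10 ± 0.05 in vehicle mice (SE, edgeR adjusted p = 0.167). So Reg1, Reg3a and Reg3b fell along the fractions of ICZ mice, and the difference of the slopes between ICZ and vehicle mice passed for none of them. That difference was -0.13 ± 0.10 for Reg3a and -0.09 ± 0.08 for Reg1 (SE, edgeR adjusted p = 0.994 for each). The 3 calls in ICZ mice were lost over F1 to F4, with edgeR adjusted p of 0.271 for Reg1, 0.252 for Reg3a and 0.8 for Reg3b, and the Reg3b call was also lost without any 1 of the mice (0.0701 to 0.126). Reg3g did not pass in either treatment.

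Pigr (GRCm38 chr1:130826684-130852249, plus strand, protein coding) had 2701, 3337 and 2827 CPM in the summed F2 to F5 of ICZ mice, against 3604, 3469 and 3634 CPM in vehicle mice. The treatments did not overlap. The log2 difference was -0.27 ± 0.12 (SE, edgeR adjusted p = 0.846), which does not pass the threshold, and the adjusted p was 0.0989 with the replicate number as a block. By fraction the treatments were apart in F2, with 2839 to 3314 CPM in ICZ mice and 3507 to 4175 CPM in vehicle mice, and in F3, with 2813 to 3456 CPM in ICZ mice and 3473 to 3811 CPM in vehicle mice. They overlapped in F1, F4 and F5. Pigr had a slope of -0.06 ± 0.03 log2 per fraction in ICZ mice (SE, edgeR adjusted p = 0.067) and -0.08 ± 0.03 in vehicle mice (SE, edgeR adjusted p = 0.0401). The fall in vehicle mice rested on replicates 2 and 3, with an edgeR adjusted p of 0.112 without vehicle replicate 2 and 0.548 without vehicle replicate 3, and over F1 to F4 it was 0.18.

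Lypd8 (GRCm38 chr11:58379043-58390728, plus strand, protein coding) had 1118, 1392 and 1184 CPM in summed ICZ mice, against 1204, 1297 and 1375 CPM in vehicle mice. The treatments overlapped, and the log2 difference was -0.07 ± 0.11 (SE, edgeR adjusted p = 0.955). They also overlapped in each of the 5 fractions, where the ratio of the means, ICZ over vehicle, ran from 0.830 in F4 to 1.04 in F2. Its slope was -0.06 ± 0.03 log2 per fraction in ICZ mice (SE, edgeR adjusted p = 0.195) and 0.01 ± 0.03 in vehicle mice (SE, edgeR adjusted p = 0.877).

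Il18 (GRCm38 chr9:50554827-50581840, plus strand, protein coding) fell along the fractions in both treatments. ICZ mice averaged 265 CPM in F1, 246 ± 12.5 in F2, 243 ± 37.9 in F3, 197 ± 30.5 in F4 and 142 ± 36.3 CPM in F5 (SD, n = 3, and 2 in F1). Vehicle mice averaged 303 ± 36.0 CPM in F1, 297 ± 28.1 in F2, 299 ± 88.9 in F3, 231 ± 40.8 in F4 and 174 ± 6.54 CPM in F5 (SD, n = 3). F1 to F3 were close to each other in both treatments, and F5 was the lowest. The slope was -0.20 ± 0.04 log2 per fraction in ICZ mice (SE, edgeR adjusted p = 0.000957) and -0.19 ± 0.04 in vehicle mice (SE, edgeR adjusted p = 0.000604), and it was negative in all 6 mice taken singly. The summed level was 234, 221 and 183 CPM in ICZ mice, against 237, 232 and 291 CPM in vehicle mice. ICZ replicate 1 lay just above vehicle replicate 2, and the log2 difference was -0.25 ± 0.13 (SE, edgeR adjusted p = 0.846). Il18 overlaps Bco2 and Tex12 on the opposite strand, and without a stated strand setting of the counting their reads cannot be told apart from its own.

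Nlrp6 (GRCm38 chr7:140920902-140929192, plus strand, protein coding) varied least between mice. It had 291, 306 and 275 CPM in summed ICZ mice, against 328, 341 and 332 CPM in vehicle mice, and the coefficient of variation was 5.35% in ICZ mice and 1.91% in vehicle mice. The treatments did not overlap. The log2 difference was -0.20 ± 0.08 (SE, edgeR adjusted p = 0.846) and its adjusted p with the replicate block was 0.128, so it does not pass. The ratio of the means, ICZ over vehicle, was between 0.832 in F5 and 0.919 in F1. Its slope was -0.02 ± 0.03 log2 per fraction in ICZ mice (SE, edgeR adjusted p = 0.525) and 0.00 ± 0.03 in vehicle mice (SE, edgeR adjusted p = 0.927).

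**Figure D3:**
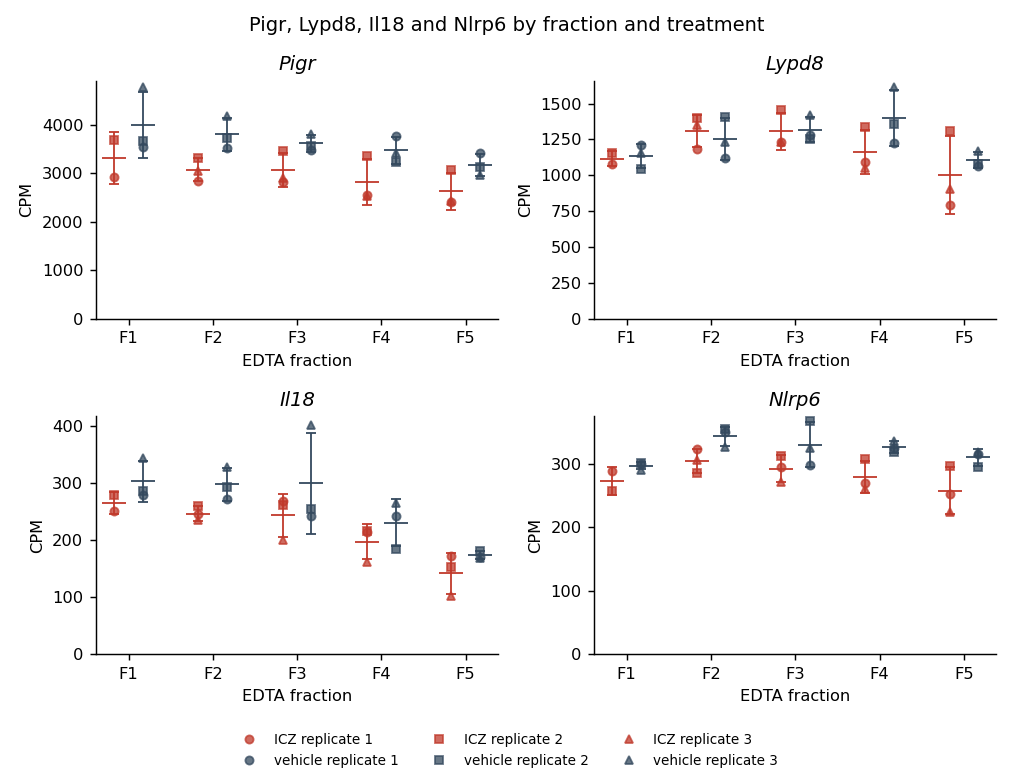
Pigr, Lypd8, Il18 and Nlrp6 in CPM by EDTA fraction, with 1 point per mouse, ICZ mice left of vehicle mice in each fraction, and bars for mean ± SD. Il18 is lowest in F5 in both treatments, at 142 CPM in ICZ mice and 174 CPM in vehicle mice, while Nlrp6 means stay between 258 and 344 CPM in all fractions.

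Over all 9 genes, Reg1, Reg3a, Reg3b and Il18 fell along the fractions of ICZ mice. Mbl2 is not counted there, since its ICZ slope is a description only. In vehicle mice 3 of the 9 fell (Mbl2, Pigr and Il18), and none rose in either treatment. Of all tested genes, 16.2% fell along the fractions of ICZ mice and 16.7% along those of vehicle mice, 14.7% rose in ICZ mice and 18.3% rose in vehicle mice, so 30.9% and 35% changed in either direction. The median slope of the 9 genes was -0.15 log2 per fraction in ICZ mice and -0.10 in vehicle mice, against 0.01 over all tested genes in each treatment. The difference of the slopes passed for 0 of the 8 genes tested by edgeR, with 0 at an unadjusted p under 0.05 and 0 by DESeq2, and for 0.0147% of all 13611 genes tested.

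**Figure D4:**
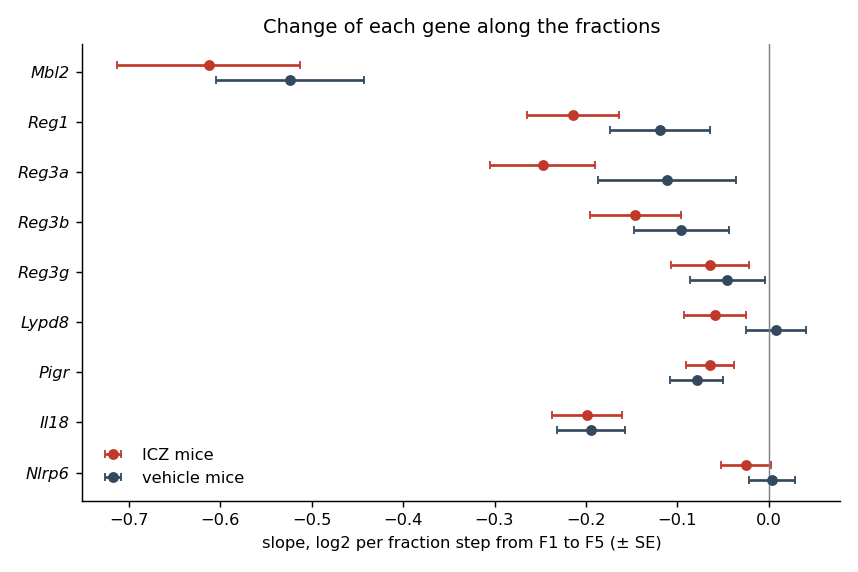
Slope of each gene over the fraction number from F1 to F5, in log2 per fraction, as points with SE bars, for ICZ mice (above) and vehicle mice (below). Mbl2 lies farthest to the left in both treatments, at -0.61 in ICZ mice and -0.52 in vehicle mice, and Lypd8 and Nlrp6 lie within 0.06 of 0.

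In ICZ against vehicle mice, none of the 8 tested genes passed in the summed fractions or in any single fraction by edgeR after the filter on low counts, with or without the replicate block, or by DESeq2. With no filter, Reg3b alone passed, in F4. In the summed fractions 2 of the 8 had an unadjusted p under 0.05, Pigr and Nlrp6. Over all 15497 genes tested 0% passed by edgeR (886 at an unadjusted p under 0.05), 1.49% with the replicate block, and 14 genes by DESeq2. The log2 difference was negative for 7 of the 8, with a median of -0.23, against 0.01 over all tested genes. Of all 15497 tested genes 7934 had a positive difference. The 8 genes were measured in the same mice, and their signs were not tested together. In single fractions 0.0324% of genes passed in F1, 0.0165% in F2, 0.00815% in F3, 0% in F4 and 0% in F5, and with the replicate block 0.365% in F1, 1.82% in F2, 0.187% in F3, 0.0413% in F4 and 0.0653% in F5. Mbl2 apart, every ICZ mouse lay below every vehicle mouse for 2 of the 8 genes in the summed fractions, 3 in F1, 3 in F2, 1 in F3, 2 in F4 and 0 in F5. Among 9336 genes with a mean of at least 5 CPM such a separation occurred for 6% in the summed fractions, 10.3% in F1, 5.29% in F2, 5.98% in F3, 6.48% in F4 and 5.57% in F5.

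**Figure D5:**
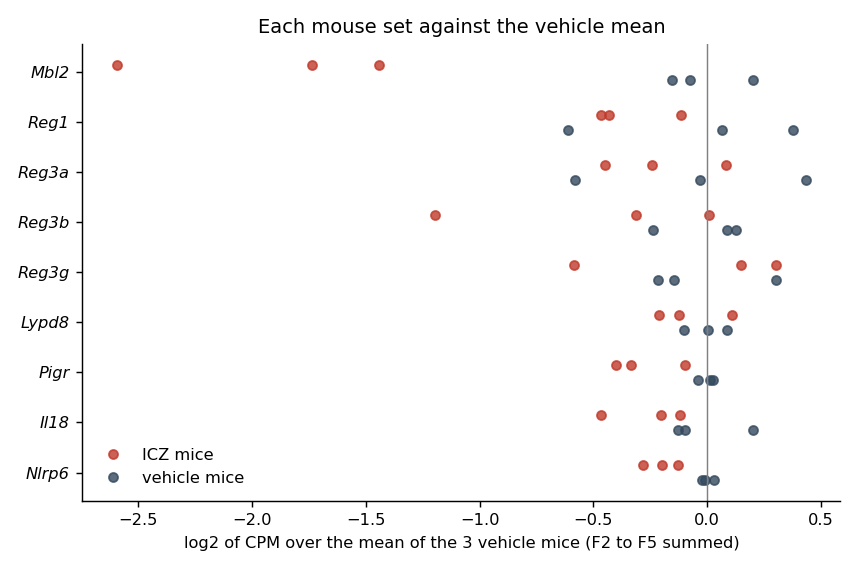
Level of each gene per mouse in the summed F2 to F5, as log2 of CPM over the mean of the vehicle mice, with ICZ mice above and vehicle mice below in each row. The 3 ICZ mice lie apart from the vehicle mice for Mbl2, Pigr and Nlrp6, and Mbl2 shows the widest gap, with 0.882 to 1.96 CPM in ICZ mice and 4.78 to 6.14 CPM in vehicle mice.

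Other genes of the same pathways were read from the same fits. For the counts of slopes in each list below, 14.7% of all tested genes rose and 16.2% fell in ICZ mice. In vehicle mice 18.3% rose and 16.7% fell. Whether a list departs from these shares was not tested. In the lectin pathway of complement, 11 of 24 listed genes were tested in the summed fractions and 0 passed by edgeR, with a median log2 difference of -0.05. With the replicate block Serping1, the inhibitor of the C1 and lectin pathway proteases, was 1.68 ± 0.33 log2 higher in ICZ mice (SE, edgeR adjusted p = 0.0206), on 175 reads in all. Of these reads 123 were in F5, the only single fraction in which Serping1 was tested. There the difference with the block was 2.54 ± 0.58 log2 and did not pass (SE, edgeR adjusted p = 0.245). Along the fractions, 2 of 8 tested genes of this list rose and 1 fell in ICZ mice, while 1 rose and 1 fell in vehicle mice. Clu, an inhibitor of the terminal complement complex, rose by 0.56 ± 0.15 log2 per fraction in ICZ mice and 0.62 ± 0.16 in vehicle mice (SE, edgeR adjusted p = 0.00974 and 0.00547). In single fractions Clu was tested only in F4 and F5, on 83 and 197 reads. The filter thus admitted it through late fractions, where it was higher, so its slopes and p are a description only. The counts of genes that rose include it. Cd55, which speeds the decay of complement convertases, had -0.24 ± 0.06 in ICZ mice and -0.18 ± 0.05 in vehicle mice (SE, edgeR adjusted p = 0.004 and 0.013).

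Of the other secreted lectins and antimicrobial proteins, 15 of 31 were tested in the summed fractions and 0 passed, with a median log2 difference of 0.10. Along the fractions, 1 of 12 rose and 2 fell in ICZ mice, while 6 of 13 rose and 2 fell in vehicle mice. Zg16, a goblet cell lectin that binds Gram-positive bacteria, fell by 0.31 ± 0.08 log2 per fraction in ICZ mice and by 0.40 ± 0.05 in vehicle mice (SE, edgeR adjusted p = 0.0106 and 7.57e-06). Lgals3, a galectin, fell by 0.31 ± 0.03 in ICZ mice and by 0.24 ± 0.04 in vehicle mice (SE, edgeR adjusted p = 4.62e-06 and 0.000158). Pglyrp1, which binds peptidoglycan, rose by 0.17 ± 0.04 in ICZ mice and 0.21 ± 0.04 in vehicle mice (SE, edgeR adjusted p = 0.00629 and 0.000508). Ang4 and Lyz1, antimicrobial products of Paneth cells, rose in vehicle mice, by 0.33 ± 0.09 and 0.33 ± 0.11 log2 per fraction (SE, edgeR adjusted p = 0.0108 and 0.0303).

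Of the genes for IgA transport and B cell recruitment, 9 of 12 were tested in the summed fractions and 0 passed, with a median log2 difference of 0.06. Calls of this list in ICZ against vehicle mice appeared in 2 of the single fractions with the replicate block, and in opposite directions. In F2 with the replicate block, Igha and Jchain, the heavy chain of IgA and the chain that joins its units, were lower in ICZ mice, by -1.70 ± 0.14 and -1.66 ± 0.31 log2 (SE, edgeR adjusted p = 3.4e-06 and 0.00913). Without the block these differences were -1.64 and -1.75 log2 and did not pass (edgeR adjusted p = 0.759 and 0.671). In the summed fractions with the block they were positive and did not pass, at 0.56 for Igha and 0.87 for Jchain (edgeR adjusted p = 0.884 and 0.67), and F5 gave 1.5 and 1.87 (edgeR adjusted p = 1 for each). In F1, where the block leaves 2 pairs, Igha was higher in ICZ mice by 0.97 ± 0.16 log2 (SE, edgeR adjusted p = 0.0104), against a difference of -1.47 without the block (edgeR adjusted p = 0.995). Markers of B and plasma cells, a list that holds Igha and Jchain themselves and of which Cd79a and Ms4a1 stayed below 1 CPM, summed to 10.6 to 170 CPM in F2 of ICZ mice and 37.4 to 485 CPM in F2 of vehicle mice. The part of these cells in the Igha and Jchain values was not tested. Along the fractions, 2 of 6 rose and 2 fell in each treatment, and Fcgrt, the neonatal Fc receptor, fell by 0.14 ± 0.03 log2 per fraction in ICZ mice and by 0.12 ± 0.03 in vehicle mice (SE, edgeR adjusted p = 0.00128 and 0.00203).

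Of the inflammasome and IL-18 family, 20 of 26 genes were tested in the summed fractions and 0 passed, with a median log2 difference of -0.04. Along the fractions 4 of 19 rose and 5 fell in ICZ mice, while 5 of 19 rose and 8 fell in vehicle mice. Gsdmd, the pore former cut by inflammasome caspases, fell by 0.31 ± 0.03 log2 per fraction in ICZ mice and by 0.28 ± 0.04 in vehicle mice (SE, edgeR adjusted p = 7.18e-06 and 1.79e-05). Il33, an alarmin cytokine, fell by 0.37 ± 0.06 in ICZ mice and by 0.32 ± 0.05 in vehicle mice (SE, edgeR adjusted p = 0.000187 and 9.32e-05). Pycard, the adaptor that joins sensors such as Nlrp6 to caspase 1, rose by 0.17 ± 0.06 in ICZ mice and 0.21 ± 0.06 in vehicle mice (SE, edgeR adjusted p = 0.0433 and 0.00851). Casp1, the protease that matures interleukin 18, had -0.04 ± 0.03 in ICZ mice and -0.03 ± 0.03 in vehicle mice and did not pass.

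Of the genes for microbe sensing and IL-22 signalling, 19 of 25 were tested in the summed fractions and 0 passed, with a median log2 difference of -0.07. With the replicate block Stat3, the transcription factor downstream of the IL-22 receptor, was lower in ICZ mice by -0.27 ± 0.06 log2 (SE, edgeR adjusted p = 0.0437). Along the fractions, 3 of 17 rose and 7 fell in ICZ mice, while 1 of 16 rose and 6 fell in vehicle mice. Stat3 fell by 0.18 ± 0.03 log2 per fraction in ICZ mice and by 0.17 ± 0.03 in vehicle mice (SE, edgeR adjusted p = 0.000875 and 0.000716). Il10rb, a chain of the IL-22 receptor, fell by 0.17 ± 0.03 in ICZ mice and by 0.15 ± 0.03 in vehicle mice (SE, edgeR adjusted p = 0.000571 and 0.00192).

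Across the 29 libraries Reg3b and Reg3g were alike (r = 0.780), as were Reg3a and Reg3g (0.746), whereas Reg1 was not like Reg3a (-0.05) or Reg3g (-0.006). Reg1 was more like Il18 (0.734) and Pigr (0.725). Among all other genes, the transcript most like Reg1 was Papss2 (0.891), that most like Reg3a was Aldh1a1 (0.953), and that most like Il18 was Mdh2 (0.905). The nearest were Immt for Reg3b (0.806), Lman1 for Reg3g (0.790), Aldoa for Lypd8 (0.889), Adh6a for Pigr after Mbl2 (0.849) and Gpr35 for Nlrp6 (0.772).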

How the data were processed

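RNA of the EDTA fractions was sequenced as QuantSeq 3′ libraries, per the labels' protocols. The authors deposited 1 table of whole-number read counts per gene, not normalized. FastQC 0.11.2, BWA 0.7.17-r1188, SAMtools 1.10, HTSeq 0.11.2 and the builds GRCm38.p6 and mm10 are named in the submitters' processing notes; the sources used here do not give the annotation, the strand setting or any use of molecular identifiers. The 5 summary lines that name no gene were left out, and gene reads made up 51.6% to 61.6% of all counted reads. Coordinates are from GENCODE M21; the Mbl2 identifier matched without its version.

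Counts were tested with edgeR 4.0.16 (R 4.3.3): filterByExpr with a minimum count of 10, TMM, robust quasi-likelihood fits, and Benjamini-Hochberg adjustment over all tested genes at a threshold of 0.05. ICZ was compared with vehicle on F2 to F5 added per mouse, which all 6 mice have, and within each fraction. Slopes over the fraction number were fitted with the mouse as a block, since the 5 fractions come from the same animal. In the slopes of ICZ mice replicate 3 enters with F2 to F5. CPM use TMM library sizes. The procedure was tested on simulated data. Alternatives were DESeq2 1.42.0, RLE size factors, no filter, leaving out mice, F5 or 1 library, and the replicate number as a block. Deviations of mice with the same number correlated at 0.381, 0.248 and 0.472 in the summed fractions. The replicate block pairs the mice by number, but only as an alternative, and the main fits do not pair them. In the titles, replicate 2 carries the number WT3 and replicate 3 the number WT4 in both treatments. Replicate 1 is WT1 in vehicle mice and WT2 in ICZ mice. The labels do not say what these numbers mean, and they name no shared batch. The pairing thus rests on the numbers and on correlations read from the same data. The labels number the replicates without stating that each is a separate mouse, and they are called mice here. In the main fits, p-values of ICZ against vehicle measure only the spread between these mice. Those of slopes and slope differences measure the spread of libraries around a common slope per treatment, with mouse levels removed. They do not measure the spread of slopes between mice.

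All 9 genes are named, and from each pathway list up to 4 genes per comparison and direction with the smallest p among those that passed, apart from Casp1, chosen later; a few of these are left out for brevity. Likeness names 5 genes for Mbl2 and up to 2 for each other gene. The genes and lists were chosen with earlier results of these data known. An undetermined sample entered no comparison. An item of the B and plasma cell markers is not reported here and was left out of their sum.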

Additional observations from a re-analysis of the deposited data

How the results depend on the processing

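Counts of called genes in ICZ against vehicle mice were small and moved with the method. In the summed fractions, 0 genes passed in the reported fit, 14 by DESeq2, 36 with no filter, 231 with the replicate block and 0 to 3 when 1 mouse was left out. In F1 the counts were 4 as reported, 17 by DESeq2, 57 with no filter, 45 with the block and 1 to 22 without 1 mouse. In the same order F2 gave 2, 96, 351, 221 and 0 to 267 genes, F3 gave 1, 18, 221, 23 and 0 to 498, F4 gave 0, 4, 26, 5 and 0 to 1, and F5 gave 0, 3, 37, 8 and 0 to 1. The replicate block changed no call of the described genes, and same-numbered mice did not all correlate above 0.1 in F3 to F5. Slopes passed for 1817 to 4396 genes without 1 vehicle mouse, for 1431 to 3449 without 1 ICZ mouse and for 4785 without F5 of ICZ replicate 1. Differences of slopes passed for 2 genes as reported, 11 by DESeq2, 4 with no filter, 0 without the block or without F5, and 0 to 4 without 1 mouse. The cause of these moves was not tested.

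Values near 0 changed sign. The summed log2 difference of Reg3g was -0.0215 with the block and -0.0154 without F5, and ran from -0.19 to 0.23 without 1 mouse; that of Reg3a ran from -0.40 to 0.10. Slopes in vehicle mice over F1 to F4 were 0.0398 for Reg3a, 0.0234 for Reg3b and 0.0641 for Reg3g, with -0.0358 for Lypd8 in F5 against F1. Nlrp6 slopes in vehicle mice were -0.0024 with RLE, -0.0026 by DESeq2 and -0.0038 with no filter, and ran from -0.0099 to 0.0085 without 1 mouse, as Lypd8 did from -0.0119 to 0.0146. In ICZ mice over F1 to F4 they were 0.007 for Reg3g, 0.0036 for Lypd8 and 2e-04 for Nlrp6, which ran from -0.0674 to 0.0046 without 1 mouse. The Mbl2 slope difference was 0.0063 without F5 and -0.2078 to 0.0347 without 1 mouse. The Pigr slope in vehicle mice had an edgeR adjusted p of 0.0586 with no mouse block, and that in ICZ mice passed by DESeq2 (adjusted p = 0.000251). Without ICZ replicate 2 Mbl2 did not pass the filter for its slope. Of 373 such values for genes given one by one, 328 held, which for tested values means the same direction and side of the threshold. For the Mbl2 values without a test it means the same direction and a shift below the SD of log2 CPM within groups. The tests of the other genes in single fractions and of the other slope differences are given here only as counts, a choice made after their values were seen; of 445 values under alternatives, 45 changed sign and none gained or lost a call. Mbl2 rests on few reads, 2 to 96 per library.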

Other observations

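A sample labelled as undetermined, with no treatment or fraction, held 7484796 gene reads and entered no comparison. In CPM of its gene reads it had 4.41 for Mbl2 (33 reads), 833 for Reg1, 233 for Reg3a, 829 for Reg3b, 335 for Reg3g, 1225 for Lypd8, 3495 for Pigr, 233 for Il18 and 369 for Nlrp6. On the same scale Mbl2 ranged from 0.392 to 5.88 CPM in ICZ libraries and from 1.75 to 14.3 CPM in vehicle libraries, so the sample lay within both ranges.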
